A study of Mus musculus with 20 samples.

Results

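The inhibitor I-BET was added together with RANKL for 24 hours, and the cells were compared with cells that received RANKL alone for the same time. This comparison uses 4 of the 20 RNA sequencing libraries of the series, chosen by their labels: 2 libraries of RAW264.7 cells with RANKL at 50 ng per ml and 2 with RANKL at 50 ng per ml plus I-BET at 500 nM (RANKL cells and combined cells below). RAW264.7 is a mouse monocyte and macrophage line, transformed by Abelson murine leukaemia virus, so every library comes from the same line. The remaining 16 libraries are used only for levels and for the comparison of times: untreated cells at hour 0, I-BET alone, and the same RANKL and combined treatments at 4 and 14 hours, with 2 libraries in each of the 10 groups. Gene expression was measured as read counts per gene, and levels are given as CPM, counts scaled to the size of the library, which compare libraries for 1 gene and not genes with each other.

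RANKL is the cytokine that turns monocytes and macrophages into osteoclasts, the multinucleated cells that dissolve bone. It binds the receptor RANK, which acts through TRAF adaptors on NF-kB and AP-1 factors, and these raise NFATc1, the factor that switches on the genes of cell fusion, acid secretion and matrix digestion. Factors of the macrophage programme, such as IRF8, hold those genes back until RANKL lowers them. I-BET blocks the bromodomains of the BET proteins, a family that includes BRD2 and BRD3, which read acetylated histones and help RNA polymerase II to leave the promoter.

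The 4 libraries held 40105379 and 40923756 counts (RANKL cells) and 48183098 and 54024985 counts (combined cells), and the series ranged from 19051780 to 62313792. The labelled cell type was checked on 5 macrophage markers: Csf1r was at 1118 and 1287 CPM in RANKL cells and 1220 and 1329 CPM in combined cells, and Lyz2, Cd68, Itgam and Adgre1 were measured in all 4 libraries as well. Of 20 markers of non-myeloid cells, 18 were too low to be tested, with at most 17 counts over the 4 libraries, and the list's summed level lay between 0.252 and 1.38 CPM. A set of 7 genes, with Rn45s but also genes other than rRNA such as Rn7sk and Lars2, was counted together. Untreated library 2 stands apart, since this set took 2.144% of its reads and 0.046% to 0.199% elsewhere. It enters no level of RANKL or combined cells, but it shares the fit from which the adjusted p-values come. No label says whether replicate libraries are separate cultures, and p-values therefore reflect only how far these samples spread, which may be technical. In bulk RNA, fewer cells of a type and less RNA per cell cannot be told apart.

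I-BET changed many of the expressed genes of RANKL cells, and large falls outnumbered large rises. Of 16042 genes tested, 2227 were higher (13.9%) and 2072 lower (12.9%) in combined cells at an adjusted p under 0.05 in edgeR's quasi-likelihood test, 26.8% in all. These calls are the meaning of "rose" and "fell" below, and each change is a fold change on the log2 scale, followed by its standard error (SE). A change of at least 4-fold was found for 225 genes that rose and 507 that fell, and one of at least 16-fold for 37 and 189. The groups' libraries did not overlap for 4297 of the 4299 called genes, against 60.4% of all tested genes. The median over all tested genes was -0.05, which is the level beside which each list's median stands. With the library number added to the fit (the replicate block) 3707 genes rose and 3768 fell (46.6%). Without RANKL library 1 the rises numbered 1434, and without combined library 2 the falls numbered 1339.

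Most genes by which an osteoclast dissolves bone were lower in combined cells. Of 21 tested genes of acid and matrix resorption, 14 fell and 2 rose (median -0.72). Acp5, the tartrate-resistant acid phosphatase used as an osteoclast stain, was at 253 and 254 CPM in the RANKL libraries and 2.11 and 1.11 CPM in the combined libraries, after 36 and 17.5 CPM in untreated cells. It fell by 7.30 (SE 0.54, adjusted p = 5.31e-07). Both combined libraries lay below both untreated libraries as well as below both RANKL libraries. Mmp9, a matrix metalloproteinase of osteoclasts, was at 37.4 and 16.6 CPM with RANKL and 0.102 and 0.0928 CPM with both agents, and fell by 8.08 (SE 0.60, adjusted p = 9.87e-07). Ctsk, the collagen-degrading protease cathepsin K, went from 88.6 and 59.4 CPM to 7.44 and 6.67 CPM and fell by 3.39 (SE 0.18, adjusted p = 3.72e-08). Atp6v0d2, a subunit of the proton pump, was at 202 and 139 CPM against 3.46 and 1.35 CPM, a fall of 6.16 (SE 0.75, adjusted p = 3.58e-05). In each of these genes both combined libraries lay below both RANKL libraries.

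A further member that fell was Src, a kinase of the osteoclast's ruffled border (44.8 and 22.6 CPM against 2.4 and 1.24 CPM, fell by 4.21). Mmp14, a membrane-bound metalloproteinase, fell by 4.51 but was low, with 154 counts over the 4 libraries (mean 0.949 CPM). Tm4sf19, a tetraspanning membrane protein, fell by 4.26, and Car2, the carbonic anhydrase that supplies protons, by 2.10. The general proton pump subunits moved far less: Atp6v1b2 fell by 0.84 (SE 0.12, adjusted p = 0.000109), while Tcirg1 had a log2 change of -0.13 and Atp6v1h of -0.19 without passing (Atp6v1h passed with the replicate block, adjusted p = 0.039). The members that rose were Ostm1, the partner of the lysosomal chloride transporter (by 0.67), and Plekhm1, a lysosome trafficking adaptor (by 0.48). Plekhm1 is lost without combined library 1 (adjusted p = 0.147) and the list's rises drop to 1 without combined library 1 or RANKL library 2. Itgb3, the integrin beta chain typical of osteoclasts, was below 1 CPM in all 4 libraries (0.198 and 0.0757 CPM and 0.122 and 0.241 CPM) and its change was not called.

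Most fusion genes were lower in combined cells as well. Of 12 tested members 7 fell and 1 rose (median -1.14). Of those that fell, Atp6v0d2 is also counted in the resorption list and Nfatc1 among the promoting factors below. Ocstamp and Dcstamp encode membrane proteins that precursor cells need to fuse. Ocstamp was at 26.8 and 17.1 CPM with RANKL and 1.12 and 0.724 CPM with both agents, and fell by 4.58 (SE 0.32, adjusted p = 3.58e-07). Dcstamp was at 33 and 26.7 CPM against 5.71 and 2.71 CPM and fell by 2.83 (SE 0.31, adjusted p = 1.45e-05). Siglec15, a sialic acid receptor of osteoclasts, was at 3.77 and 2.12 CPM against 0.0813 and 0.0186 CPM and fell by 5.84. The 1 member that rose was Sirpa, an inhibitory receptor that binds CD47, from 178 and 175 CPM to 644 and 565 CPM, by 1.77 (SE 0.11, adjusted p = 1.52e-07). Its partner Cd47 had a change of 0.00 and was not called.

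Transcription factors that promote osteoclasts and repressors of osteoclast genes both held called members. Of 24 tested promoting factors 13 fell and 2 rose (median -0.57; 4 rose with the replicate block, 1 rose without RANKL library 1, and 9 fell without RANKL library 1 or combined library 2). Of 10 repressors 5 rose and 0 fell (median 0.90). Nfatc1, the factor that drives osteoclast formation, was at 1005 and 740.4 CPM in RANKL cells and 139 and 106 CPM in combined cells, and fell by 2.83 (SE 0.40, adjusted p = 0.000119). I-BET alone gave 136 and 109 CPM, in the range of the combined libraries. Prdm1, the repressor Blimp1 that switches off Irf8 in osteoclast precursors, was at 18.7 and 8.32 CPM with RANKL and 0.0813 and 0.111 CPM with both agents, and fell by 7.08 (SE 0.70, adjusted p = 5.72e-06).

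**Figure D1:**
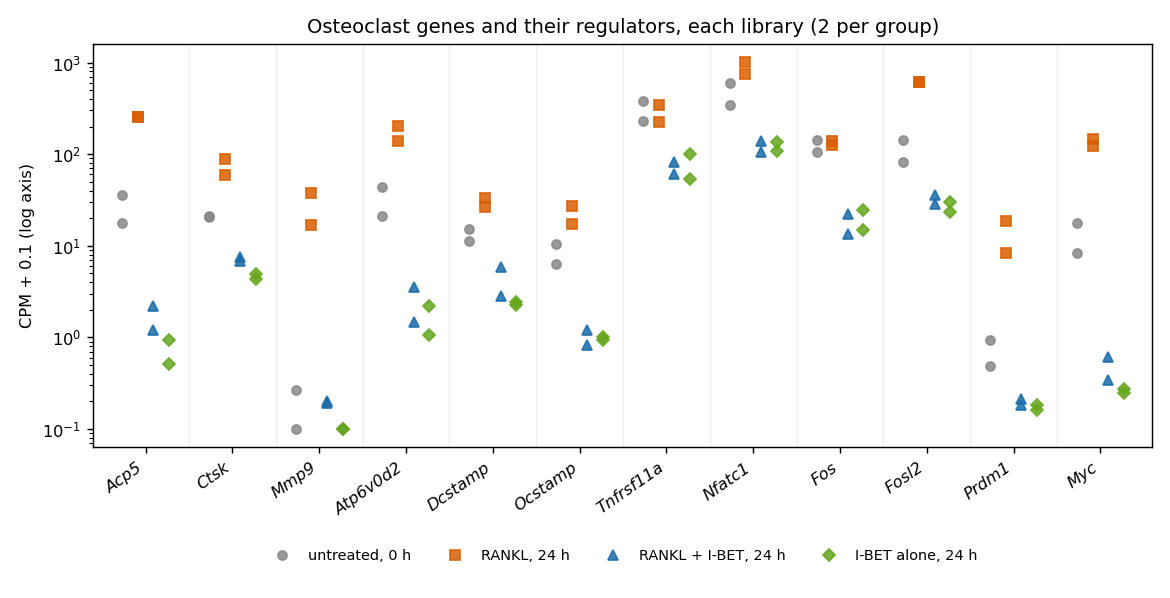
Levels of 12 osteoclast genes and regulators in each library, as CPM plus 0.1 on a log axis, in untreated cells and after 24 hours of RANKL, RANKL plus I-BET or I-BET alone (2 libraries a group, 1 symbol each). For every gene both combined libraries lie below both RANKL libraries, as for Myc at 0.508 and 0.241 against 145 and 123 CPM.

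The AP-1 family did not move as a block. Fos fell by 2.92 (SE 0.30, adjusted p = 7.95e-06), from 139.7 and 127 CPM to 22 and 13.2 CPM, and Fosl2, from 617 and 605 CPM to 35.7 and 28.2 CPM, by 4.26 (SE 0.29, adjusted p = 2.67e-07). Fosl1 fell by 4.13 and Jdp2, a dimerization partner of Jun needed for osteoclasts, had a change of -3.61 and fell too. Jun went the other way: it was at 16.1 and 16 CPM with RANKL and 30.4 and 31 CPM with both agents, and rose by 0.94 (SE 0.22, adjusted p = 0.00608). Fosb, Junb and Jund were not called, with changes of -0.15, -0.56 and 0.77 (Jund passed with the replicate block, adjusted p = 1.04e-05). Of these, Fosb held only 28 counts over the 4 libraries. The libraries of Jun did not overlap, with both combined libraries on the higher side.

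The AP-1 sites of 3 genes that fell are shown because these genes include the repressor Prdm1 and one of the largest falls. RefSeq promoters (GRCm38.p6, 250 bases before the start) were searched on both strands for TGANTCA, and a match is a description of letters, not a bound site. The match is in capitals in Prdm1 (chr10:44458770-44458816, minus strand), Il1rn (chr2:24336699-24336745, plus strand) and Rab15 (chr12:76818593-76818624, minus strand), each read along the strand of the gene.
Prdm1: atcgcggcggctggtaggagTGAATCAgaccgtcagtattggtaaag
Il1rn: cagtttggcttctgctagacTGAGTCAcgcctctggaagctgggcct
Rab15: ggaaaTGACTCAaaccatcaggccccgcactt
Il1rn is the antagonist of the IL-1 receptor and Rab15 a small GTPase of endosomes; their values follow with the cytokines and with the largest changes. The same letters stand before the starts of Cybb, Dhcr7, Bcl2a1d and 9930111J21Rik2, which rose, and of Ccl9 and Rcan1, which fell. The letters occur in 8.07% of promoters of genes that fell, 5.16% of those that rose, 5.53% of tested genes and 7.82% of all genes in the promoter table.

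Among the repressors, Irf8 was at 4.14 and 6.25 CPM in RANKL cells and 55.4 and 66.4 CPM in combined cells, and rose by 3.55 (SE 0.35, adjusted p = 5.71e-06). For comparison, untreated cells held 51.9 and 74 CPM of Irf8, so the combined libraries lay in the untreated range. Id3 and Id1, inhibitors of basic helix-loop-helix factors, rose by 3.15 (SE 0.33, adjusted p = 9.31e-06) and by 3.59. Irf1, an interferon regulatory factor, rose by 0.98. Bcl6, another repressor of osteoclast genes, was not called: it was at 22.4 and 23.8 CPM and 22 and 22.5 CPM, with a change of -0.05 (SE 0.17, adjusted p = 0.856).

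Signal transduction below RANK was split. Of 31 tested genes of RANK and costimulatory signalling 10 fell and 8 rose (median 0.04). Falls numbered 6 without combined library 2, and rises 5 without RANKL library 1 or combined library 1. The receptor gene Tnfrsf11a, which encodes RANK, was at 340 and 226 CPM with RANKL and 82.9 and 60.6 CPM with both agents, and fell by 1.98 (SE 0.40, adjusted p = 0.00206). The M-CSF receptor gene Csf1r did not pass (change 0.08, adjusted p = 0.727). The adaptors Blnk and Lcp2 and the kinase Btk fell by 1.06, 0.96 and 0.67, while the ITAM adaptor Fcer1g, the kinase Syk and the phospholipase Plcg2 rose by 0.98, 0.67 and 0.63. Rcan1, a target of NFAT that restrains calcineurin, fell from 79 and 83.9 CPM to 30.7 and 28.4 CPM, by 1.46 (SE 0.20, adjusted p = 0.000114). Traf6, the central adaptor of RANK, had a change of 0.04 and was not called.

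NF-kB feedback and target genes gave 8 falls and 3 rises among 24 tested (median -0.19), and the falls numbered 3 without combined library 2, 5 without RANKL library 1 and 4 without RANKL library 2. Traf1, an adaptor of TNF receptors, was at 122 and 142 CPM with RANKL and 23.1 and 8.99 CPM with both agents, and fell by 3.04 (SE 0.32, adjusted p = 9.88e-06). The subunit gene Nfkb1 fell by 0.57 (SE 0.089, adjusted p = 0.00029). Nfkbia, the inhibitor that NF-kB induces first, had a change of -0.07 and Tnf of 0.25, neither of them called. Tnfaip2 went from 39.9 and 47.8 CPM to 146 and 119.9 CPM and rose by 1.60 (SE 0.12, adjusted p = 5.21e-07), and Cd83, a maturation marker, rose by 1.31. These 2 genes of the list thus moved against Traf1 in the same libraries.

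Myc was among the largest falls of all genes, and genes of the MYC and MAX network moved in both directions. Myc (ENSMUSG00000022346, chromosome 15, 61985341 to 61990374, build mm10) was at 145 and 123 CPM in RANKL cells, 0.508 and 0.241 CPM in combined cells and 17.6 and 8.32 CPM in untreated cells, and fell by 8.49 (SE 0.46, adjusted p = 4.98e-08). The combined libraries were lower than the untreated ones too. Of 12 tested members 5 rose and 3 fell (median 0.23; 3 rose without RANKL library 1). Mycl fell by 5.75, from 3.59 and 4.06 CPM to 0.102 and 0.0371 CPM. Among MAX partners that oppose MYC, Mxd4 rose by 1.43 (SE 0.20, adjusted p = 0.000116), Mxd1 by 1.10 and Mxd3 by 1.31, while Mnt and Mga were not called (changes 0.19 and -0.30). With the replicate block Mga fell (adjusted p = 0.00133). Mycn, the paralog of Myc, was at 362 and 466 CPM in RANKL cells and 862 and 964 CPM in combined cells and rose by 1.14 (SE 0.26, adjusted p = 0.00479), a call that is lost without RANKL library 1 (adjusted p = 0.0556).

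Genes of ribosome biogenesis and nucleotide synthesis, a group that includes many known MYC targets, were mostly lower by small amounts. Of 48 tested 22 fell and 0 rose (median -0.33), and the change was below 0 in 44 of 48. With the replicate block 39 fell and 1 rose. Without combined library 1 the falls numbered 12, without combined library 2 they numbered 14, and without RANKL library 2 there was 1 rise. Dkc1, the pseudouridine synthase of ribosomal RNA, was at 366 and 313 CPM against 208 and 210.4 CPM and fell by 0.70 (SE 0.091, adjusted p = 6.32e-05). Prps1, which makes the sugar phosphate of nucleotides, fell by 0.68 (SE 0.11, adjusted p = 0.000439). Ncl and Fbl, which encode abundant nucleolar proteins, had changes of -0.25 and 0.01 and were not called (Ncl passed with the replicate block, adjusted p = 0.0139).

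Brd2 and Hexim1 were the members that rose among 11 genes of BET proteins and P-TEFb, the kinase that releases paused polymerase (0 fell, median 0.08; 4 rose and 3 fell with the replicate block, and 1 fell without RANKL library 1). Brd2 was at 366 and 389.8 CPM in RANKL cells and 568 and 543 CPM in combined cells, and rose by 0.56 (SE 0.080, adjusted p = 0.00014). Hexim1, the protein that holds P-TEFb inactive, was at 55 and 62.5 CPM against 128 and 135 CPM and rose by 1.16 (SE 0.20, adjusted p = 0.000679). Brd3 was not called, with a change of -0.17, and passed with the replicate block (adjusted p = 0.0468). The kinase Cdk9 and its cyclin Ccnt1 had changes of 0.17 and 0.08, neither called (Cdk9 passed with the replicate block, adjusted p = 0.0402).

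Among 30 tested clustered histone genes 7 rose and 0 fell, while the list's median was -0.19. Hist1h1c, a linker histone, was at 14.6 and 14.1 CPM with RANKL and 140 and 129 CPM with both agents, and rose by 3.23 (SE 0.22, adjusted p = 2.69e-07). Hist1h2bc rose by 3.16 (SE 0.19, adjusted p = 1.13e-07), from 4.11 and 2.67 CPM to 33.4 and 27.5 CPM. The groups were apart in both genes. Libraries were made from poly(A) RNA, in which replication-dependent histone mRNA is under-represented, and histone copies share sequence, so these counts are uncertain.

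Most genes of the type I interferon response fell in combined cells, and the list had the lowest median of the 28 lists. This response is switched on by interferon through factors such as STAT2 and IRF9, which bind the interferon-stimulated response element (ISRE) in promoters. Of 47 tested members 36 fell and 1 rose (median -1.68, against -0.05 over all tested genes). The sensors of double-stranded RNA Oas2 and Oas3 fell by 3.92 (SE 0.20, adjusted p = 2.95e-08) and 3.28 (SE 0.27, adjusted p = 1.17e-06). Oas2 was at 51.8 and 54.3 CPM in RANKL cells and 3.25 and 3.73 CPM in combined cells, and Oas3 at 44.3 and 61.1 CPM and 5.83 and 5.03 CPM. The level of Oas2 in untreated cells, 55.8 and 55.2 CPM, was close to that of RANKL cells, and with I-BET alone it was 2.83 and 2.83 CPM. Rtp4, a chaperone induced by interferon, was at 25.1 and 31.8 CPM against 0.488 and 0.594 CPM and fell by 5.71 (SE 0.49, adjusted p = 1.9e-06).

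The ISRE core is shown for 6 members because they carry these letters and include the 1 gene of the list that rose. The search was for GAAA, any 2 bases and GAAA again, on both strands of the 250 bases before the RefSeq start (GRCm38.p6), so a match on the other strand reads TTTC, 2 bases and TTTC. Matches are in capitals. The windows are Isg15 (chr4:156200855-156200916, minus strand), Ifit1 (chr19:34640765-34640833, plus strand), Ddx60 (chr8:61928014-61928086, plus strand), Oas1a (chr5:120907526-120907565, minus strand), Oas3 (chr5:120777705-120777754, minus strand) and Stat2 (chr10:128270256-128270305, plus strand), each along the strand of its gene.
Isg15: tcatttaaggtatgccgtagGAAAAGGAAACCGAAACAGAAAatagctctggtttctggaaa
Ifit1: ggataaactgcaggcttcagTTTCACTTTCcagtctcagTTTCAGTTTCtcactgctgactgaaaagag
Ddx60: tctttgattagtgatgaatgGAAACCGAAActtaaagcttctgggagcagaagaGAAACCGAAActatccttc
Oas1a: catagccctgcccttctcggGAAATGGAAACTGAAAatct
Oas3: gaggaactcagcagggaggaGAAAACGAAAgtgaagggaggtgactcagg
Stat2: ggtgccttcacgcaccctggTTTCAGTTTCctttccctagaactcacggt
The Isg15 window holds 3 overlapping matches and those of Ifit1, Ddx60 and Oas1a hold 2 each. Of 37 members of the list with a RefSeq promoter, 14 hold the letters (37.8%), and 12 of 29 called members do (41.4%). Over all genes in the table the share was 3.46%, among tested genes 3.30%, among genes that fell 4.99% and among genes that rose 2.88%.

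Of the genes shown, Isg15, a ubiquitin-like modifier, was at 2.03 and 3 CPM in RANKL cells and 0.366 and 0.279 CPM in combined cells, and fell by 2.96 (SE 0.48, adjusted p = 0.0004). Ifit1, which binds viral RNA caps, was at 1.98 and 1.51 CPM against 0.366 and 0.186 CPM and fell by 2.67 (SE 0.35, adjusted p = 6.9e-05). Ddx60, a helicase of antiviral defence, was at 2.33 and 2.19 CPM against 0.285 and 0.223 CPM and fell by 3.15 (SE 0.37, adjusted p = 2.78e-05). All 3 were low in every library, and both combined libraries were lower than both RANKL libraries. Oas1a fell by 2.28 (SE 0.34, adjusted p = 0.000214), from 29.2 and 45.4 CPM to 6.97 and 8.36 CPM; its copy Oas1g has a near-identical window, and reads of the pair cannot be divided with certainty.

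Factors that drive these genes did not move alike. Stat2 was at 15 and 17.7 CPM with RANKL and 29.2 and 35.9 CPM with both agents, and rose by 0.99 (SE 0.15, adjusted p = 0.000208). Irf9, its partner, was at 35.1 and 38.4 CPM against 11.1 and 11.8 CPM and fell by 1.68 (SE 0.14, adjusted p = 1.26e-06). Irf7, which amplifies the interferon response, fell by 2.45 (SE 0.45, adjusted p = 0.00101), from 17.5 and 29.7 CPM to 4.41 and 4.23 CPM. The sensors Ddx58 and Ifih1 fell by 1.49 and 0.92. The members with the smallest changes among those that fell, Trim25 and Parp12, are lost without RANKL library 1 (adjusted p = 0.391) and RANKL library 2 (adjusted p = 0.285), and at least 26 members fell with any 1 library left out.

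**Figure D2:**
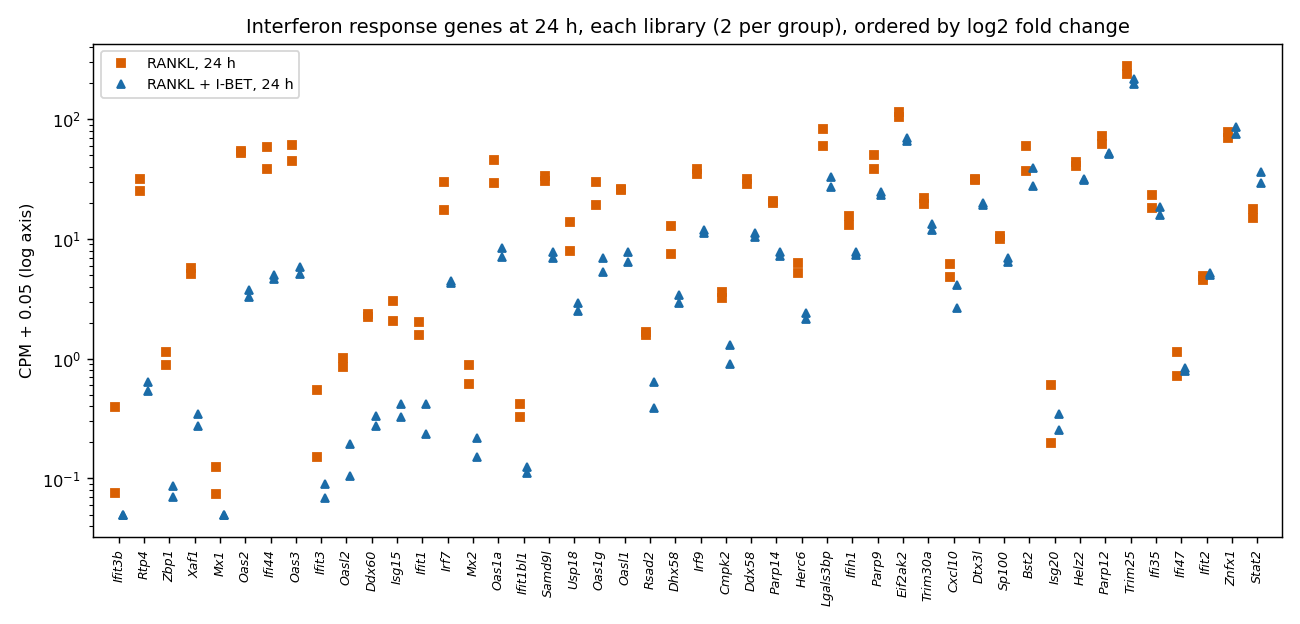
Interferon response genes in each 24-hour library, ordered from the lowest log2 fold change on the left, as CPM plus 0.05 on a log axis (2 RANKL libraries, squares; 2 combined libraries, triangles). Most genes have both triangles below both squares, and Stat2 at the right end has them above (29.2 and 35.9 against 15 and 17.7 CPM).

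Class I antigen presentation, which interferon also raises, held few calls. Of 21 tested genes 3 rose and 1 fell (median 0.06; 3 fell with the replicate block, 1 rose without RANKL library 1). H2-T23, a non-classical class I gene, was at 29.7 and 44.8 CPM in RANKL cells and 5.18 and 8.91 CPM in combined cells, and fell by 2.40 (SE 0.48, adjusted p = 0.0019). Erap1, which trims peptides for presentation, rose by 0.65 (SE 0.11, adjusted p = 0.000469). The classical heavy chains H2-K1 and H2-D1 and the light chain B2m had changes of 0.39, 0.12 and 0.11, none called (H2-K1 passed with the replicate block, adjusted p = 0.00111).

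Many genes of the macrophage programme were higher in combined cells. Of 35 tested macrophage identity genes 14 rose and 8 fell (median 0.62; 5 fell without combined library 2). Cx3cr1, the receptor of fractalkine, was at 30.6 and 40.05 CPM in RANKL cells and 227 and 254 CPM in combined cells, and rose by 2.77 (SE 0.24, adjusted p = 1.67e-06). Its level in untreated cells was 697 and 826 CPM, above both combined libraries. Cybb, the catalytic subunit of the phagocyte NADPH oxidase, was at 102 and 130.5 CPM against 774 and 996 CPM and rose by 2.93 (SE 0.26, adjusted p = 2.26e-06). Mpeg1, a pore-forming protein of macrophages, was at 30.9 and 45.3 CPM against 233 and 319.5 CPM and rose by 2.86 (SE 0.35, adjusted p = 3.69e-05). Among defining markers, Adgre1, the F4/80 antigen, rose by 1.54 (SE 0.26, adjusted p = 0.00054) and Lyz2, lysozyme, by 1.41 (SE 0.24, adjusted p = 0.00064).

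Other macrophage genes fell in the same libraries. Cd36 and Msr1, scavenger receptors, fell by 1.90 (SE 0.34, adjusted p = 0.000931) and 1.42 (SE 0.17, adjusted p = 2.53e-05). Clec4d, a lectin that senses mycobacteria, was at 42.5 and 45.8 CPM in RANKL cells and 17.4 and 15.7 CPM in combined cells, and fell by 1.41 (SE 0.15, adjusted p = 1.31e-05). Axl, a receptor that takes up dying cells, fell by 1.59. The lysosomal marker Cd68 fell by 0.45, a call lost without combined library 2 (adjusted p = 0.104). Itgam, the CD11b integrin chain, had a change of -0.45 and was not called (adjusted p = 0.013 with the replicate block).

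**Figure D3:**
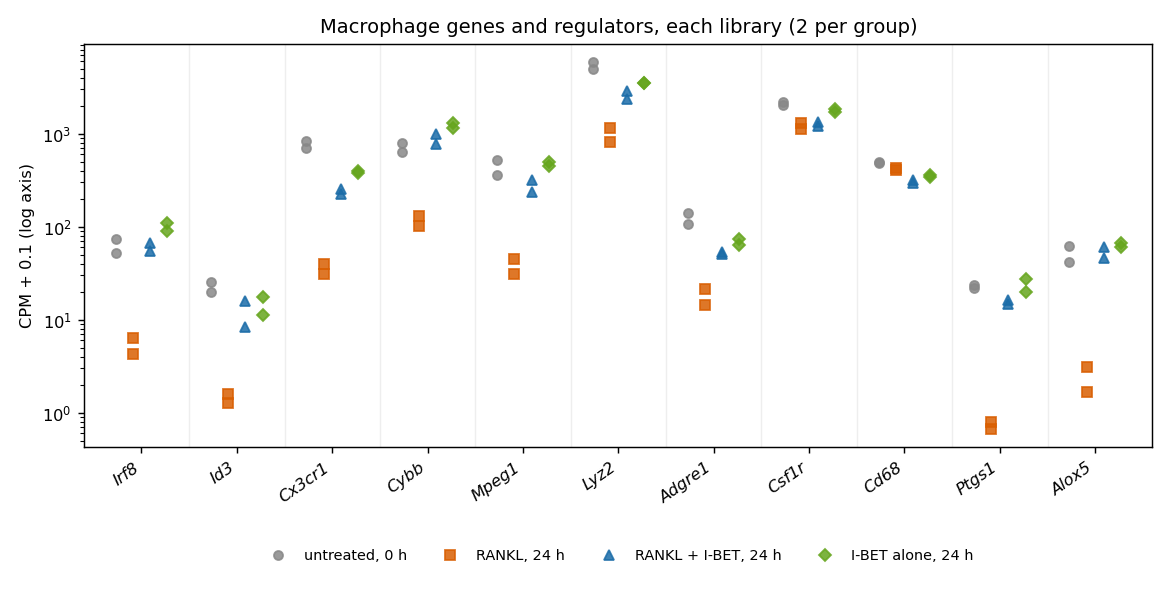
Levels of 11 macrophage genes and regulators in each library, as CPM plus 0.1 on a log axis, in untreated cells and after 24 hours of RANKL, RANKL plus I-BET or I-BET alone (2 libraries a group). For Irf8, Cx3cr1, Ptgs1 and Alox5 both combined libraries lie above both RANKL libraries, while the groups overlap for Csf1r (1220 and 1329 against 1118 and 1287 CPM) and Cd68 is lower with I-BET.

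Toll-like receptors and co-receptors divided evenly, with 6 rises and 6 falls among 21 tested (median 0.38). The rises numbered 10 with the replicate block and 3 without RANKL library 1, and the falls numbered 3 without combined library 2, RANKL library 1 or RANKL library 2. Tlr2, a receptor of bacterial lipopeptides, was at 92.2 and 119 CPM with RANKL and 326 and 237 CPM with both agents, and rose by 1.41 (SE 0.19, adjusted p = 9.97e-05). Irak3, which dampens Toll-like receptor signals, was at 2.77 and 2.52 CPM against 15 and 15.9 CPM and rose by 2.54 (SE 0.20, adjusted p = 7.61e-07). Cd180, a relative of TLR4, was at 92.4 and 65.2 CPM against 29.3 and 22.1 CPM and fell by 1.62 (SE 0.30, adjusted p = 0.001). Tlr4 itself had a change of 0.38 and was not called (adjusted p = 0.0145 with the replicate block).

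Genes known from dendritic cells were mostly too low to test, 11 of 20 being tested, of which 4 rose and 2 fell (median 1.02). Of the defining markers, Flt3 had 1 count over the 4 libraries, and Zbtb46 was tested and not called (change 0.32). Cd74, the invariant chain of class II molecules, was at 32.3 and 50.8 CPM in RANKL cells and 229.9 and 259 CPM in combined cells, and rose by 2.56 (SE 0.28, adjusted p = 1.54e-05), whereas the class II genes H2-Aa, H2-Ab1 and H2-Eb1 held 0, 9 and 1 counts. Cd86, a costimulatory ligand, was at 0.124 and 0.0505 CPM against 1.44 and 0.965 CPM and rose by 3.74, while its relative Cd80 was at 5.08 and 6 CPM against 2.72 and 1.69 CPM and fell by 1.33 (SE 0.24, adjusted p = 0.000948). The 2 ligands of the T cell receptor CD28 therefore moved apart.

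Chemokine and cytokine genes gave large changes in both directions. Of 24 tested chemokine and receptor genes 7 rose and 7 fell (median -0.22). Ccr1, the receptor that osteoclast precursors use, was at 17.8 and 11.9 CPM in RANKL cells and 0.203 and 0.0557 CPM in combined cells, and fell by 6.84 (SE 0.59, adjusted p = 1.99e-06). Its ligand Ccl9 was at 887 and 855 CPM against 177 and 109 CPM and fell by 2.61 (SE 0.22, adjusted p = 1.38e-06). Ccr3, an eosinophil chemokine receptor, had 131 counts over the RANKL libraries and 0 over the combined ones, at least 56.2-fold lower at a floor of 3 counts over the group. Cxcr4 rose by 1.68, from 0.396 and 0.479 CPM to 1.3 and 1.52 CPM.

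Of 21 tested inflammatory cytokines and mediators 9 fell and 3 rose (median -0.83). Il1rn was at 32.7 and 35.7 CPM in RANKL cells and 3.35 and 3.16 CPM in combined cells, and fell by 3.39 (SE 0.16, adjusted p = 2.51e-08). Il1a and Il1b, which its product opposes, held only 15 and 14 counts over the 4 libraries. Their changes of -0.53 and -0.77 were not called. Vegfa, the vascular growth factor, was at 19.7 and 39.8 CPM against 2.64 and 5.48 CPM and fell by 2.87 (SE 0.37, adjusted p = 6.27e-05), with RANKL library 2 the highest. Nos2, the inducible nitric oxide synthase, had 135 counts against 2, a ratio of 86.9 (95% counting interval 23.6 to 725). Tnfsf9, the ligand of 4-1BB, rose by 1.69 (SE 0.33, adjusted p = 0.00149), and Tgfb1 by 0.89, from 104 and 109 CPM to 206 and 189.8 CPM. Osteopontin, encoded by Spp1, had a change of 0.05 and was not called.

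Lysosome and autophagy genes were mostly higher in combined cells, by modest amounts. Of 30 tested 15 rose and 1 fell (median 0.59; 4 fell with the replicate block), and the change was above 0 in 25 of 30. The rises numbered 5 without RANKL library 1 and 8 without combined library 2. Ulk1, the kinase that starts autophagy, was at 16.1 and 17.3 CPM in RANKL cells and 36.4 and 37.9 CPM in combined cells, and rose by 1.15 (SE 0.093, adjusted p = 1.02e-06). Map1lc3b, which coats autophagosomes, rose by 0.79 (SE 0.080, adjusted p = 6.71e-06), and Npc2, a cholesterol carrier of the lysosome, fell by 0.81 (SE 0.17, adjusted p = 0.003). Cathepsin L (Ctsl) rose by 1.02, lost without RANKL library 1 (adjusted p = 0.0569), in the same libraries in which cathepsin K fell.

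The E-box CACGTG, the letters read by MITF and TFE factors as well as by MYC, is shown in Lamp1 and Mcoln1 because these lysosomal genes hold several copies in the 250 bases before their RefSeq starts (GRCm38.p6; the letters read the same on both strands, copies in capitals). The windows are Lamp1 at chr8:13159080-13159160, plus strand and Mcoln1 at chr8:3500428-3500499, plus strand.
Lamp1: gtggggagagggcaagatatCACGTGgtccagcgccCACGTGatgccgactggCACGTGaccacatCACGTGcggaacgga
Mcoln1: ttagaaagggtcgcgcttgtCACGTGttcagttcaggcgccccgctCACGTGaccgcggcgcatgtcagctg
Lamp1, a lysosomal membrane glycoprotein, was at 559 and 676 CPM in RANKL cells and 889 and 1058 CPM in combined cells and rose by 0.66 (SE 0.15, adjusted p = 0.00455). Mcoln1, the calcium channel of the lysosome, was at 28.9 and 31.8 CPM against 48.2 and 50.7 CPM and rose by 0.70 (SE 0.18, adjusted p = 0.0113). Lamp1 is lost without combined library 2 (adjusted p = 0.063) and Mcoln1 without RANKL library 1 (adjusted p = 0.0772). The letters were found in 7 of 23 members with a promoter (30.4%) and 3 of 11 called ones (27.3%), against 9.87% of tested genes and 6.86% of all genes. In the ribosome list, 4 of 41 promoters held them (9.76%), and 0 of 21 called ones. Tfeb, a driver of lysosome genes, rose by 0.91 (lost without RANKL library 1, adjusted p = 0.212), and Mitf had a change of -0.95 and was not called (adjusted p = 4.43e-07 with the replicate block).

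Of 26 antioxidant and glutathione genes 9 rose and 3 fell (median 0.16; 6 fell with the replicate block, 1 without combined library 2 or RANKL library 2). Both ferritin chains rose: Fth1 was at 1171 and 1252 CPM with RANKL and 2093 and 2290 CPM with both agents and rose by 0.86 (SE 0.10, adjusted p = 3.79e-05), and Ftl1, which has near-identical pseudogenes, rose by 2.12. G6pdx, which supplies NADPH, was at 188 and 199 CPM against 366 and 349.6 CPM and rose by 0.89 (SE 0.12, adjusted p = 0.000118). Nfe2l2, the factor NRF2 that drives many of these genes, rose by 0.67 (SE 0.11, adjusted p = 0.00037). The glutathione transferase gene Gstt4, from a family with close copies, had 423 counts against 0, at least 182-fold lower at the floor of 3 counts over the group. Slc7a11, the cystine carrier, fell by 0.87 (SE 0.25, adjusted p = 0.0166) and is lost with any 1 of the 4 libraries left out (adjusted p of 0.0519 to 0.0851).

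Most genes of DNA replication and mitosis were not called, but falls were more frequent than over all tested genes (28.6% and 29.4% against 12.9%). Of 42 DNA replication genes 12 fell and 2 rose (median -0.19), or 19 and 5 with the replicate block. Falls numbered 7 without combined library 2, and the rises numbered 0 without combined library 1 or 2 and 1 without RANKL library 1 or 2. Uhrf1, which maintains DNA methylation, was at 378 and 306 CPM in RANKL cells and 217 and 188 CPM in combined cells, and fell by 0.75 (SE 0.14, adjusted p = 0.00124). Of 34 mitosis genes 10 fell and 1 rose (median -0.14), with 3 falls without combined library 1, 6 without RANKL library 1, 5 without RANKL library 2, and 0 rises without combined library 2 or RANKL library 2. Kif20a, a kinesin of cell division, was at 186 and 171 CPM against 115 and 118 CPM and fell by 0.61 (SE 0.087, adjusted p = 0.000128). Mki67, the proliferation marker, had a change of 0.06 and was not called.

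Of 21 genes of G1 control 3 rose and 4 fell (5 and 8 with the replicate block; 5 rose without RANKL library 2 and 2 fell without combined library 2). Rb1, the retinoblastoma protein that restrains E2F factors, was at 26.7 and 25 CPM with RANKL and 69.9 and 62.5 CPM with both agents, and rose by 1.36 (SE 0.23, adjusted p = 0.00058). Cdk6 fell by 1.38 (SE 0.48, adjusted p = 0.0482), which is lost without RANKL library 1 (adjusted p = 0.293), combined library 1 (0.0612) or combined library 2 (0.291), with RLE factors (0.0506), with the CPM filter (0.0513), without untreated library 2 (0.0564) and by limma on RPKM (0.069 and 0.0708). Of 15 BCL2 family genes 4 rose and 3 fell (2 rose without RANKL library 1 or combined library 1). Bcl2, which blocks cell death, rose by 0.87 (SE 0.15, adjusted p = 0.000482), and Pmaip1, which promotes it, by 1.17 (SE 0.25, adjusted p = 0.00263). The survival gene Mcl1 had a change of 0.17 and was not called.

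Metabolic lists differed from each other. Of 28 ATF4 target and amino acid supply genes 13 fell and 1 rose (median -0.35), with 8 falls without RANKL library 2, and the 1 rise, Ddit3, was lost without RANKL library 1, combined library 1 or combined library 2 (2 rises without RANKL library 2 or with the replicate block). Mthfd2, the mitochondrial folate enzyme, was at 230.1 and 279.7 CPM in RANKL cells and 120.2 and 126 CPM in combined cells, and fell by 1.05 (SE 0.10, adjusted p = 5.52e-06). Atf4, the factor itself, was at 284 and 411 CPM against 193 and 202 CPM and fell by 0.81 (SE 0.15, adjusted p = 0.00113). Of 38 oxidative phosphorylation genes 0 rose and 0 fell (median 0.00; 4 and 10 with the replicate block). Glycolysis gave 2 rises among 22 (6 rises and 7 falls with the replicate block), of which Aldoc rose by 1.09 (SE 0.16, adjusted p = 0.00017); the rises numbered 4 without RANKL library 2 and 1 without RANKL library 1 or combined library 2, and 4 genes fell without RANKL library 1. Cholesterol synthesis gave 2 rises among 23 (5 rises and 4 falls with the replicate block, 1 rise with any 1 of the 4 libraries left out), of which Dhcr7 rose by 1.06 (SE 0.21, adjusted p = 0.00215).

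**Figure D4:**
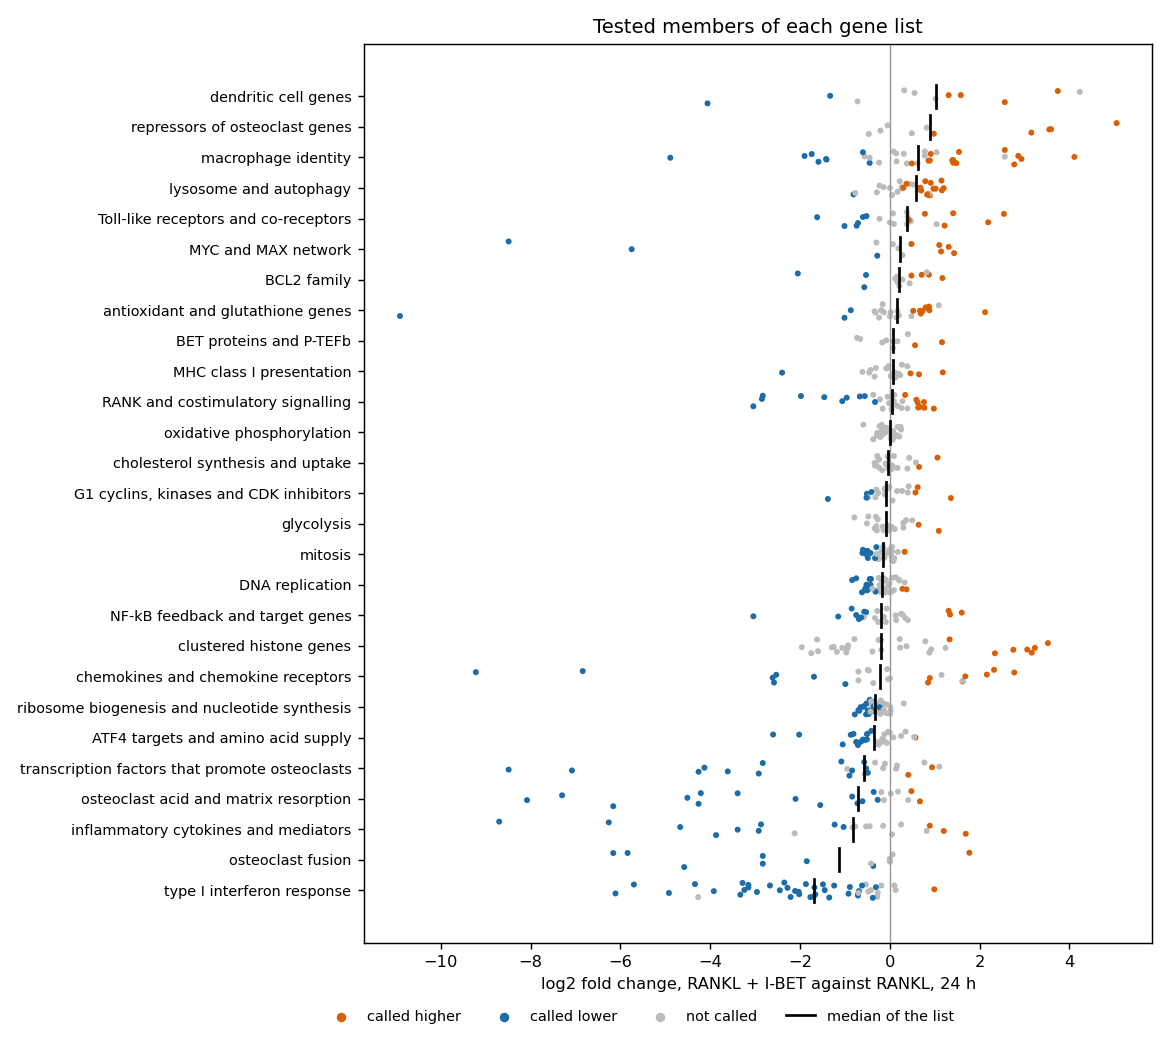
Log2 fold changes at 24 hours of the tested members of 27 gene lists (rows), with genes that rose in orange, genes that fell in blue and others in grey, and the median of each list as a bar. The interferon list lies farthest to the left (median -1.68) and oxidative phosphorylation is centred at 0 (median 0.00).

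The largest single changes lay partly outside these lists. Among the deepest falls under the naming rule were Rab15, Slc9b2, Bdh2, Myc, Rgs16, Mmp9 and Slc6a4. Rab15 was at 78.9 and 128 CPM in RANKL cells and 0.203 and 0.0371 CPM in combined cells, and fell by 9.76 (SE 0.52, adjusted p = 8.54e-08). Slc9b2, a sodium and proton exchanger of osteoclasts, had 2049 counts against 3, a ratio of 879 (95% counting interval 300 to 4268). Bdh2, an enzyme of ketone and siderophore metabolism, was at 39.8 and 42.8 CPM against 0.163 and 0.0371 CPM and fell by 8.69 (SE 0.54, adjusted p = 1.41e-07). Bdh2 and Slc9b2 are neighbours on the plus strand of chromosome 3 with 3273 bases between them (chromosome 3, 135281221 to 135304426 and chromosome 3, 135307700 to 135342767, mm10). Rgs16, a brake on G-protein signals, went from 43.5 and 61.4 CPM to 0.102 and 0.186 CPM and Slc6a4, the serotonin transporter, from 7.83 and 12.4 CPM to 0.0406 and 0.0371 CPM.

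Among the largest rises were Rcsd1, Ighm, Ptgs1, Alox5, Tmem176a, Abcd2 and 9930111J21Rik2. Ptgs1, the constitutive cyclooxygenase, was at 0.57 and 0.706 CPM in RANKL cells and 16.4 and 14.8 CPM in combined cells, and rose by 4.61 (SE 0.26, adjusted p = 7.39e-08). Alox5, the enzyme of leukotriene synthesis, was at 1.56 and 3.03 CPM against 46.4 and 59.9 CPM and rose by 4.54 (SE 0.36, adjusted p = 9.78e-07). Ptgs2, the inducible cyclooxygenase, had a change of -0.15 and was not called. Rcsd1, a regulator of actin capping, was at 0.57 and 0.605 CPM against 14.3 and 23.4 CPM and rose (adjusted p = 3.53e-06). Ighm, the immunoglobulin mu chain, was at 3.27 and 5.2 CPM against 123 and 129 CPM and rose by 4.89 (SE 0.31, adjusted p = 1.76e-07). Abcd2, a peroxisomal fatty acid transporter, rose by 4.03 (SE 0.20, adjusted p = 2.95e-08). Libraries that do not overlap were a condition for naming these genes.

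Some genes were present in 1 group and nearly absent in the other. With at least 100 counts in one group and at most 3 in the other, 27 called genes were lower and 2 higher in combined cells. The higher ones were both segments of the immunoglobulin heavy chain, Ighd with 205 counts against 0 (at least 53.1-fold) and Ighj4 with 149 against 0 (at least 38.6-fold), at a floor of 3 counts over the RANKL libraries. Among the lower ones, Cadm2, a cell adhesion molecule, had 501 counts against 0, at least 215-fold lower. Lpin3, a phosphatidate phosphatase, had 371 against 1, a ratio of 478 (95% counting interval 85.2 to 18918), and these genes were picked after their counts were seen.

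The effect of I-BET at 24 hours was then set against its effect at 14 and 4 hours, which rest on other libraries. At 14 hours 3538 genes were called (22.1%) and at 4 hours 1828 (11.4%; 4.93% higher and 6.46% lower). Calls in the same direction at 24 and 14 hours numbered 2891, which is 67.2% of the 24-hour calls and 81.7% of the 14-hour calls, and 1 gene was called in opposite directions. For 24 and 4 hours the number was 1192, 27.7% of the 24-hour calls and 65.2% of the 4-hour calls, with 68 in opposite directions. At 24 hours alone 1219 genes were called, but an effect that passes at 1 time and not at another is not shown to differ.

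The test of the difference itself found 7 genes (0.0436%) between 24 and 14 hours, 4 with a higher effect at 24 hours (0.0249%) and 3 with a lower one (0.0187%) (156 and 138 with the replicate block, 0 and 0 in a fit of only these 8 libraries). Lsp1, an actin-binding protein of leukocytes, was at 12.5 and 18.5 CPM with RANKL and 27.6 and 36.4 CPM with both agents at 14 hours, and at 4.53 and 4.97 CPM and 56.3 and 62.9 CPM at 24 hours. Its effect was higher at 24 hours by 2.60 (SE 0.26, adjusted p = 0.00175), and this held with any 1 of the 8 libraries left out. Hspa4l, a heat shock protein, was at 81.6 and 81.4 CPM and 76.2 and 68.1 CPM at 14 hours, and at 188 and 241 CPM and 62.2 and 72.2 CPM at 24 hours, so that the RANKL libraries were high at the later time. The difference was -1.50 (adjusted p = 0.0444). Lpin2, a phosphatidate phosphatase, was at 33.1 and 34.5 CPM and 64.1 and 66 CPM at 14 hours, and at 69.7 and 73.8 CPM and 74.7 and 73 CPM at 24 hours, with a difference of -0.90 (adjusted p = 0.00619).

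Slc44a1, a choline transporter, and Kctd12 had higher effects at 24 hours, by 0.81 and 1.26, and Rnf24 a lower one, with a difference of -1.16. Id1, named here after its values were seen, was at 3.3 and 2.13 CPM and 2.82 and 2.79 CPM at 14 hours and at 0.0743 and 0.101 CPM and 1.32 and 0.854 CPM at 24 hours, a difference of 3.54 (adjusted p = 0.0444). With 1 library left out between 1 and 4 genes had a higher effect and between 0 and 3 a lower one: the higher numbered 1 without combined library 2 at 24 hours, combined library 1 at 14 hours or RANKL library 1 at 14 hours, and 2 without combined library 1 or RANKL library 2 at 24 hours or combined library 2 at 14 hours. The lower numbered 1 without combined library 1 at 24 hours and 0 without combined library 2 or RANKL library 2 at 24 hours, combined library 1 or 2 at 14 hours or RANKL library 1 at 14 hours. Untreated library 2, which shares the fit, brings the lower ones to 1 when it is left out. Acp5, Ctsk and Mmp9, which fell at both times, did not pass this test (adjusted p = 0.376, 0.4 and 0.449), and neither did Irf8 (0.974); with the replicate block Acp5 (0.00731) and Irf8 (0.000584) passed.

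Between 24 and 4 hours 734 genes had a higher and 434 a lower effect at the later time (7.28% in all; 1941 and 1573 with the replicate block, 386 and 190 in a fit of only these 8 libraries). The higher numbered 462 without RANKL library 1 at 24 hours and 480 without combined library 1 at 24 hours. The lower numbered 257 and 248 without combined library 1 and 2 at 24 hours, 238 without combined library 1 at 4 hours, and 226 and 233 without RANKL library 1 and 2 at 4 hours. The resorption gene Ctsk had a change of -0.03 at 4 hours, -2.52 at 14 hours and -3.39 at 24 hours, and its effect at 24 hours was lower than at 4 hours, with a difference of -3.36 (adjusted p = 6.74e-06). For Acp5 the 3 changes were -0.71, -4.85 and -7.30 (difference of 24 and 4 hours -6.59, adjusted p = 4.41e-05). In the resorption list 7 of 21 members had a lower effect at 24 than at 4 hours, and 0 a higher one.

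The regulators did not share 1 course over time. Dcstamp had changes of -2.26, -2.74 and -2.83 at the 3 times and Nfatc1 of -1.73, -2.85 and -2.83, without a difference that passed (adjusted p = 0.532 and 0.283; 0.000227 for Nfatc1 with the replicate block). Irf8 had changes of 0.52, 2.51 and 3.55, with a higher effect at 24 than at 4 hours by 3.03 (SE 0.46, adjusted p = 0.00102). Alox5 had 0.16, 3.29 and 4.54, a difference of 4.38 (adjusted p = 7.59e-05), and Cx3cr1 -0.01, 1.78 and 2.77, a difference of 2.77 (adjusted p = 0.000127). Brd2 went the other way: its changes were 1.53, 0.77 and 0.56, and the effect at 24 hours was lower, with a difference of -0.98 (adjusted p = 0.000133). Of 35 macrophage identity genes 15 had a higher effect at 24 than at 4 hours and 0 a lower one, while of 47 interferon genes 1 was higher and 7 lower, and the interferon median was -1.24, -1.96 and -1.68 at 4, 14 and 24 hours. Hexim1 had changes of 1.18, 0.88 and 1.16, and its difference did not pass (adjusted p = 0.989).

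**Figure D5:**
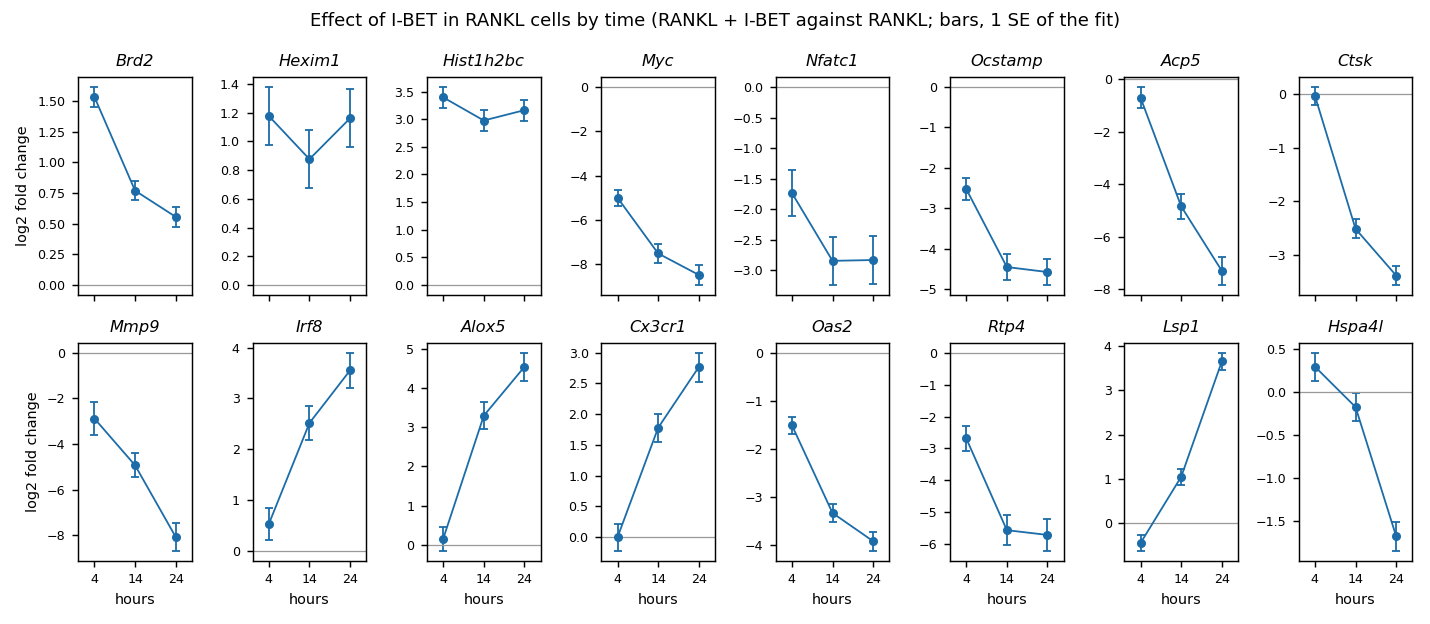
Log2 fold change of RANKL plus I-BET against RANKL for 16 genes at 4, 14 and 24 hours (points, with 1 SE of the fit as bars; 2 libraries a group at each time, and each panel has its own vertical axis). Brd2 approaches 0 with time, Acp5, Ctsk and Mmp9 grow lower, Irf8, Alox5 and Cx3cr1 grow higher, and Lsp1 and Hspa4l move mainly between 14 and 24 hours.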

How the data were processed

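Poly(A) RNA libraries were sequenced as paired reads of 100 bases, per the labels' protocols. FastQC, STAR 2.5.3a and DESeq2 1.16.1 are named in the submitters' processing notes; which tool counted the reads, and whether by strand, is not given in the sources used here. Overlapping and antisense genes and near-identical copies are therefore uncertain. The deposited raw counts cover 50686 genes, and the authors' deposited RPKM equal counts over gene length and library total for 25807 of 25807 genes with a value above 0 (tolerance 0.1%). Symbols came from the deposited file (42745 genes) or GENCODE M21 (7915), and 26 genes had none. Libraries were grouped by their labels.

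Counts of all 20 libraries were fitted as 10 group means in edgeR 4.0.16 (R 4.3.3; filterByExpr, TMM, robust quasi-likelihood fit, 10 residual degrees of freedom, Benjamini-Hochberg adjustment over 16042 genes, threshold 0.05). CPM used TMM-scaled library sizes. Counting intervals are exact at 95% and cover counting error only. On simulated data for the 24-hour comparison (16042 genes), 10 of 67 genes changed 1.5-fold, 33 of 67 changed 2-fold and 42 of 66 changed 4-fold were found, with 6 false calls. An exact permutation test of 2 libraries against 2 cannot go below p = 0.333.

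Libraries with the same number deviated together in 45 of 45 pairs of groups (correlations 0.221 to 0.596, median 0.454). For the 24-hour groups the correlation was 0.391. The labels name no batch. The numbers were taken as pairing only in the replicate block, and the main fit behind the calls leaves them out. The biological coefficient of variation was 0.162 without and 0.0751 with the replicate block.

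Alternatives were RLE factors, no filter, a minimum of 1 CPM in 2 or more libraries, no robust estimation, DESeq2 1.42.0, limma 3.58.1 on log2 RPKM with a pseudocount of 1 or 0.1 (genes reaching an RPKM of 1 in 2 or more libraries), only the compared libraries, the block, each library left out, and, chosen after seeing the data, untreated library 2 left out. Promoters came from RefSeq (GRCm38.p6; 9645 tested genes matched), and 84 of 107 checked starts lay near the start of a GENCODE M21 transcript.

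The comparison, gene lists and fixed genes were chosen with earlier results of these data known. Named genes were 21 fixed genes, the 8 largest rises and falls with a mean of at least 5 CPM and libraries that do not overlap, the 3 largest called changes of each list at that level, and the 4 largest differences between times in each direction. Other list members were named after their values were seen. Some genes that the rule gives are not reported here.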

Additional observations from a re-analysis of the deposited data

Results flagged for a closer look

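The effect of I-BET differed between times by a test of the difference itself. Between 24 and 14 hours it was higher at 24 hours for 4 genes and lower for 3. Lsp1 differed by 2.60, Kctd12 by 1.26 and Slc44a1 by 0.81 on the log2 scale. Hspa4l differed by -1.50, Rnf24 by -1.16 and Lpin2 by -0.90. In a fit of only the 8 libraries concerned none of these 6 passed, with adjusted p between 0.301 and 0.465.

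Between 24 and 4 hours the effect was higher for 734 genes and lower for 434. It was higher for the repressor Irf8 by 3.03 and the macrophage gene Cx3cr1 by 2.77, and, outside the lists, for Ptgs1 by 4.51, Alox5 by 4.38, Tmem176a by 4.44 and AI504432 by 4.61. Among osteoclast genes the differences were -6.59 for Acp5, -3.36 for Ctsk, -5.19 for Mmp9, -5.39 for Atp6v0d2 and -2.05 for Ocstamp. Myc differed by -3.49, Fos by -1.41, Prdm1 by -4.18 and Brd2 by -0.98. The most negative differences were -9.04 for Slc9b2, -8.87 for Rab15 and -6.99 for Bdh2. With so few counts in combined cells these differences depend on the fit. That of Bdh2 ran from -8.31 to -6.26 with 1 library left out.

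Leaving out 1 library ended some of these calls. Between 24 and 14 hours Rnf24 is lost in all 8 such fits (adjusted p 0.0516 to 0.244), Hspa4l in 7 (0.0857 to 0.244), Slc44a1 in 7 (0.0572 to 0.223), Lpin2 in 6 (0.0516 to 0.107) and Kctd12 in 4 (0.0516 to 0.0881). Between 24 and 4 hours Mmp9 is lost without combined library 2 at 4 hours (-4.06, adjusted p = 0.339), without combined library 1 (0.0529) or 2 (0.0574) at 24 hours. Rab15 is lost without combined library 1 at 4 hours (-7.57, adjusted p = 0.341). Prdm1 is lost without any 1 library except RANKL library 2 at 24 hours, with adjusted p from 0.0507 to 0.189, and Fos without any 1 except combined library 1 at 24 hours, with adjusted p from 0.0775 to 0.184.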

How the results depend on the processing

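Small changes can be missed with 2 libraries a group: 10 of 67 simulated 1.5-fold changes were found. The simulation changed far fewer genes than were called here, so the share found in these data was not measured. At 24 hours the counts stayed within 1.5 times under RLE, no filter, the CPM filter, no robust estimation, DESeq2, limma, only the compared libraries and without untreated library 2. With the replicate block 3707 genes rose and 3768 fell. With 1 library left out, where the lone library is assumed to vary like the others, 1434 to 2073 rose and 1339 to 1826 fell. For 24 against 14 hours the higher and lower effects numbered 61 and 71 with no filter, 32 and 46 by DESeq2, 156 and 138 with the block, 0 and 0 with only the compared libraries, 5 and 9 with the CPM filter, 5 and 11 by limma with a pseudocount of 1, and 4 and 1 without untreated library 2. With 1 library left out they numbered 1 to 4 and 0 to 3. For 24 against 4 hours they numbered 1941 and 1573 with the block, 386 and 190 with only the compared libraries, and 462 to 728 and 226 to 311 with 1 library left out. Of 86 called named genes 11 were lost in at least 1 fit with a library left out, 3 in another alternative and 0 with the block, and 0 changed direction. These 86 are the called genes under the naming rule. Others in the text, such as Plekhm1, Cd68 and Lamp1, were also lost with 1 library left out. Among genes not called, the sign turned for Bcl6 (0.00502 without RANKL library 2, range -0.0787 to 0.00502) and Itgb3 (-0.16 without combined library 2 and -0.1 without RANKL library 2, range -0.16 to 1.26). Between 24 and 4 hours Myc (-1.03, adjusted p = 0.111) and Ocstamp (-0.51, adjusted p = 0.367) were not called by limma with that pseudocount. The cause was not tested.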
